A study of Tripsacum dactyloides with 133 samples.

Results

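The genes described here are paired duplicates of eastern gamagrass (*Tripsacum dactyloides*) whose orthogroups also hold a pair of genes in maize. An orthogroup, a set of genes descended from 1 ancestral gene, was taken when it held exactly 2 gamagrass genes on different chromosomes and exactly 2 maize genes. Of 21658 orthogroups in the orthologue table, 3497 held 2 gamagrass genes, 627 of these also held 2 maize genes, and in 349 of those the gamagrass copies lay on different chromosomes. The 150 with the highest summed level were kept, which gave 300 of the 45865 genes counted. Members were thus selected on their mean CPM (the count scaled to a library total of 1000000) in the plants with live inocula, and levels are given as a description. Gene names and functions were not used here, and genes are given by identifier.

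Maize and gamagrass belong to sister genera, and their common ancestor underwent a whole-genome duplication. After such an event most duplicates lose 1 copy, while some pairs persist in both descendants. The copies of a persisting pair may stay equal in expression, 1 copy may come to dominate, or they may come to respond differently to organ, stress or season. Genes for transcription factors and for subunits of protein complexes are known to be kept as duplicates more often than others.

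RNA was sequenced from crown roots of gamagrass plants of the genotype Pete, grown in a growth chamber. All but 8 of the plants had received a live microbial slurry, and these 8 a mock inoculum. Live slurries came from 4 Kansas prairie soils, CWR and WEL (61 plants, high-precipitation legacy) and SVR and TRI (64 plants, low-precipitation legacy). The labels give sites, and which sites count as low or high follows the study's text. Slurries had been conditioned under drought stress (62 plants) or ample water (63 plants), with gamagrass (63 plants) or with no host (62 plants). In the test phase 63 live and 4 mock plants were droughted, and 62 live and 4 mock plants were well-watered. Each of CWR, SVR and TRI gave 16 droughted and 16 well-watered plants, and WEL gave 15 and 14. The plants share 1 genotype label and all reads were counted on 1 haplotype of 1 reference genome.

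The median library total was 52.3 M counts in droughted plants (lowest 13.6, highest 64.2), where M stands for mega. It was 24.9 M counts with ample water (lowest 0.00605, highest 69.4). Mock well-watered replicate 1 held only 6045 counts, with a count in 20 of the 300 genes. Every droughted plant carried a lower number in its label than any well-watered plant, so plant number and water treatment cannot be told apart. Member genes took a median of 1.01% of the counts of a live library.

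The pairs lay mostly on a few pairs of chromosomes. Of the 150 orthogroups, 70.7% fell on 8 of the 39 chromosome pairings that occurred. Chromosomes 2 and 6 shared 20 orthogroups, 7 and 9 shared 18, 3 and 5 shared 16, and 1 and 4 shared 12. Chromosomes 12 and 16 shared 11, 8 and 15 shared 10, 11 and 17 shared 10, and 1 and 10 shared 9. Over all 349 orthogroups, at any level, these 8 pairings held 48, 34, 35, 28, 25, 31, 18 and 28 in the same order. Within these pairings the order of the copies along the first chromosome followed that along the second, same or reversed, to different degrees. The absolute rank correlation of start positions was between 0.58 and 1 over the 9 to 20 orthogroups of a pairing. This correlation was 0.58 for chromosomes 2 and 6, 0.72 for 1 and 4, 0.77 for 11 and 17 and at least 0.98 for the other main pairings. Taken as an absolute value, it does not tell the same order from a reversed one. It is a description across genes, which are not independent. Another 23 pairings held 1 orthogroup each, and in 5 orthogroups a copy lay on an unplaced scaffold. The copy with the higher level was on chromosome 2 in 15 and on chromosome 6 in 5 of their 20 orthogroups, and on either side in 8 of the 16 shared by chromosomes 3 and 5. At any level, it was on chromosome 2 in 30 of the 48 shared by chromosomes 2 and 6. It was on chromosome 3 in 16 of the 35 shared by chromosomes 3 and 5.

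**Figure D1:**
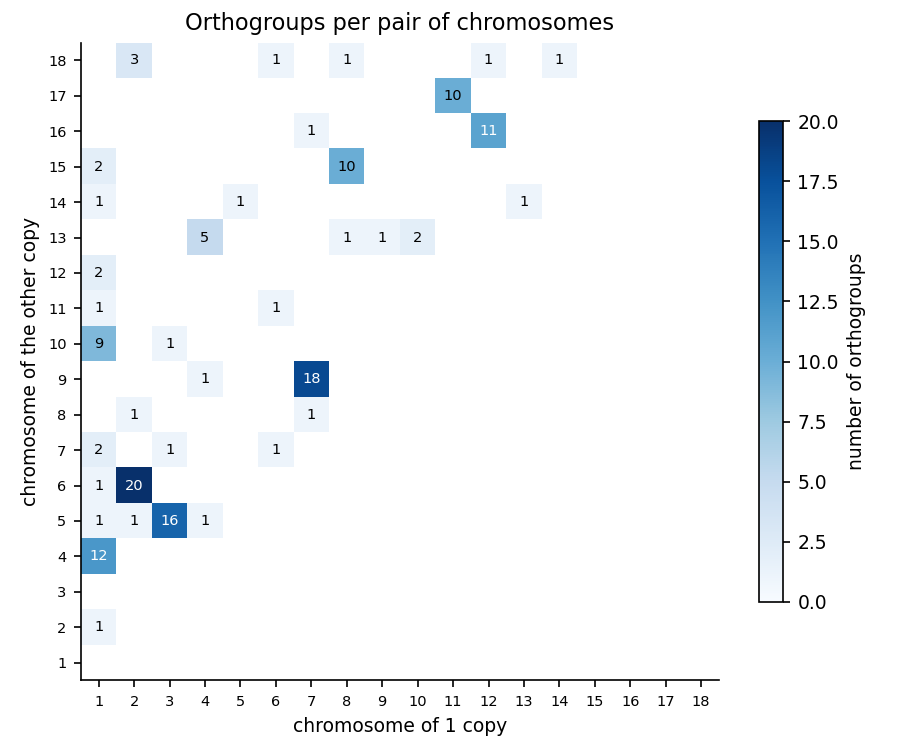
Number of the 150 orthogroups on each pair of chromosomes, with the chromosome of 1 copy on the horizontal axis and that of the other on the vertical axis. The darkest cell is the pairing of chromosomes 2 and 6 with 20 orthogroups, and the 5 orthogroups with a copy on a scaffold are not drawn.

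The maize side was of 2 kinds. In 68.7% of the orthogroups each gamagrass copy was assigned a maize gene of its own, and in 47 both gamagrass copies were assigned the same 2 maize genes. In 37 of these 47 the numbers of the maize identifiers were at most 50 apart, against 4 of the others. Maize identifiers number genes along the genome, but the positions of the maize genes were not checked here. A duplication shared by both species was thus not established, either for these 47 or for the others. The 8 main chromosome pairings held 80 orthogroups of the first kind and 26 of the second. Among the 199 orthogroups of the same structure at lower levels, 68.8% were of the first kind and 62 were of the second.

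Levels of the copies were compared as CPM per kb of gene span, and the copy with the higher mean over live plants is called the high copy. The high copy exceeded the low copy at least 2-fold in 88 of the 150 orthogroups, at least 8-fold in 38 and at least 100-fold in 11. The median log2 ratio was 1.24, with quartiles of 0.52 and 3.05. In 63 orthogroups the high copy was above the low copy in every live plant. In 62 of these 63 it was also above in each of the 7 mock plants left when the library of 6045 counts is set aside. In 44 orthogroups the high copy led in fewer than 90% of live plants. Without division by gene span, the median log2 ratio was 1.39 and the lead passed to the other copy in 8 orthogroups.

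The most abundant pair, OG0003128, joined Td00002ba020645 (chr6:28913576-28916969, plus strand) and Td00002ba006479 (chr2:61414488-61418101, minus strand), with a summed level of 405 CPM. In droughted plants Td00002ba020645 ranged from 43.4 over a median of 62.3 to 135.7 CPM per kb, and in well-watered plants from 45.95 over 67.3 to 114.9. Td00002ba006479 ranged from 27.1 over 44.9 to 107.4 CPM per kb in drought and from 27.1 over 43.7 to 100.1 with ample water. The high copy was above the low copy in every live plant although its mean level was only 1.45-fold higher.

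The next pair, OG0003517, was at the same time the most evenly balanced of the 150. Its copies Td00002ba041901 (chr16:33495894-33499529) and Td00002ba035931 (chr12:88861783-88864595), both on the plus strand, summed to 365 CPM. Td00002ba041901 ranged from 31.02 over 53.5 to 107.2 CPM per kb in drought and from 35.6 over 54.6 to 122.3 in well-watered plants. Td00002ba035931 ranged from 28 over 50.4 to 87.9 CPM per kb in drought and from 36.9 over 56.8 to 121.3 in well-watered plants. The means differed 1.01-fold, and the nominal high copy led in only 55 live plants. The second most even pair, OG0002394 (Td00002ba003538 on chromosome 1 and Td00002ba015510 on chromosome 4), had medians between 6.34 and 7.17 CPM per kb in both copies and both treatments. Its high copy led in 62 live plants.

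At the other end, 2 pairs had a low copy without a single count in the live libraries. Td00002ba011612 of OG0003383 had a median of 19.3 CPM per kb in droughted and 14.7 in well-watered plants, while its partner Td00002ba017988 was at 0 in every one. Td00002ba023445 of OG0003401 had medians of 4.58 and 4.87 CPM per kb, with its partner Td00002ba012411 at 0 in every live plant. That partner was at 0.006 CPM per kb in mock drought replicate 2. Set against a floor of 3 counts over the live libraries together, the log2 ratio was at least 15.28 in OG0003383 and at least 14.40 in OG0003401, for counting error only. The gene models at 0 in live plants were short, 1280 bp against 2996 bp and 2621 bp against 11384 bp.

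Short partners were common among uneven pairs. In 23 orthogroups the low copy spanned under 50% of the length of the high copy, and their median log2 level ratio was 4.85. It was 1.11 in the orthogroups whose spans were within a factor of 2 of each other. Pairs whose copies shared both maize genes had a median log2 ratio of 2.91, against 1.13 where each copy had its own. They were at least 8-fold apart in 23 of 47 orthogroups (48.9%), against 15 (14.6%) of the others. Short low copies made up 13 of the 47 and 10 of the others, and their part in that difference was not tested.

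**Figure D2:**
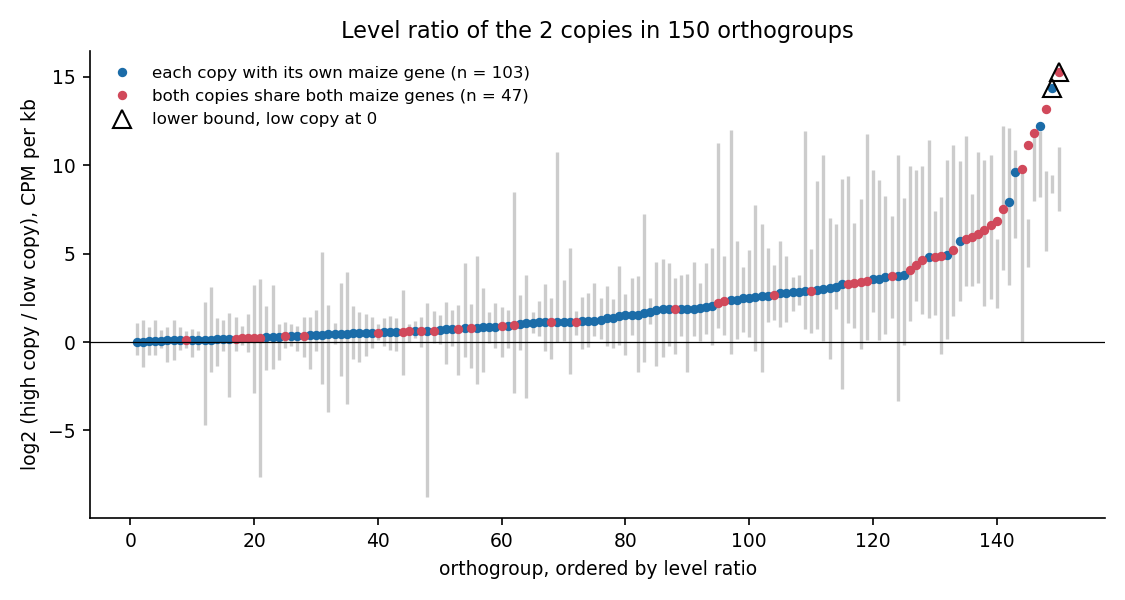
Log2 ratio of high to low copy (CPM per kb) in the 150 orthogroups, ordered by the ratio of the mean levels. Dots are ratios of means over all live plants, grey lines run from the lowest to the highest plant (prior count 1), and triangles mark lower bounds for the 2 low copies at 0. Dots start near 0 with OG0003517 and pass 1, a 2-fold lead, in 88 orthogroups.

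The members nearest to the limit of selection were OG0003539 and OG0002523, with summed levels of 14.3 and 13.6 CPM. The next 2 orthogroups, OG0003672 and OG0003521, had 13.3 and 12.8 CPM and were left out. The median over the 150 was 43.9 CPM.

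Plants differed in copy ratio to very different degrees. The standard deviation (SD) of the log2 ratio over live plants, after the fitted treatments, ran from 0.14 to 3.18 in the orthogroups with a mean count of at least 10 in both copies, with a median of 0.74. The steadiest pair, OG0002775 (Td00002ba025790 on chromosome 8 and Td00002ba040975 on chromosome 15), was chosen after its values were seen, as were the 2 pairs that follow. Td00002ba025790 ranged from 19.1 over 36.4 to 86.4 CPM per kb in drought and Td00002ba040975 from 19.6 over 34.5 to 85.3, so both moved over the same range and their ratio hardly moved.

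OG0003235 was the least steady. Td00002ba035835 (chr12:73085841-73092309) ranged from 9.05 over 13.4 to 18.2 CPM per kb in droughted plants and from 5.75 over 12.8 to 17.01 in well-watered plants. Its partner Td00002ba045192 (chr18:50127974-50139499) was under 0.1 CPM per kb in 42 live plants, over 1 in 81 and in between in only 2. The plants thus fell into separate clusters, in which the second copy was near absent or present. Near absence occurred with both treatments, in 25 droughted and 17 well-watered plants. A log2 CPM ratio over 4 occurred in 43 live plants, 12 of CWR, 8 of WEL, 14 of SVR and 9 of TRI. The same split appeared among mock plants, with Td00002ba045192 at 0.01 CPM per kb in drought replicate 2 and at 1.70, 1.25 and 1.45 in drought replicates 1, 3 and 4. It was at 0.08 CPM per kb in well-watered replicate 3 and at 3.91 and 1.91 in replicates 2 and 4.

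In OG0003622 the low copy Td00002ba042629 was under 0.1 CPM per kb in 25 live plants, over 1 in 68 and in between in 32, so its levels spread without a gap. Over the 150 pairs, 9 low copies and 0 high copies were under 0.1 CPM per kb in at least 13 live plants and over 1 in at least 13 others. Among these, Td00002ba013671 of OG0002975, also chosen after its values were seen, resembled Td00002ba045192, with 84% of live plants under 0.1, 18 plants over 1 and 2 in between. A count of 0 in at least 1 live library occurred in 42 low copies and in 1 high copy, and depth differed between libraries. The low copy was named for its lower mean in these same plants, and the pairs were kept for their summed level. Fewer high than low copies near 0 were thus favoured by the selection and the naming.

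The copies of a pair followed each other from plant to plant to very different degrees. Over the 63 droughted plants the correlation of log2 CPM between copies had a median of 0.41 over the pairs with enough counts and ran from -0.55 to 0.98. Over the 62 well-watered plants the median was also 0.41, with a range from -0.60 to 0.97. It was over 0.5 in 60 pairs in drought and in 55 with ample water, and below 0 in 22 and 18. In the orthogroups of this structure at lower levels the medians were 0.48 and 0.45, so such values were not particular to the members. The points of a correlation share library, depth and plant number, so these values are a description.

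Test-phase drought was compared with ample water to see whether both copies respond alike. DESeq2 tested all but 5 of the 300 member genes and called 82, 50 higher and 32 lower in drought. That is 27.8%, against 22.7% of all 40820 genes tested (10.2% higher and 12.5% lower). Only 9 of the 82 changed at least 2-fold, and the median size of the called changes was 0.39 on the log2 scale, against 0.48 over all called genes. Among the high copies 28 rose and 19 fell, and among 145 tested low copies 22 rose and 13 fell. In whole roots, fewer cells of a type and less RNA per cell cannot be told apart.

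Pairs in which both copies changed were a minority. Of the 145 orthogroups with both copies tested, 11 had both copies higher and 7 both lower in drought. These 18 orthogroups compare with 9.06% of all orthogroups of this structure with both copies tested, at any level. Another 42 (29%) had 1 copy called and the other not, against 25.9% over the same background. In 84 (57.9%) neither copy was called, against 63.8%, and 1 orthogroup had its copies called in opposite directions (1.29% over that background). In the 42 the other copy had the same sign of change in 27. A call in 1 copy only does not show that the copies differed, which the ratio test below addresses. With only well-watered libraries of at least 30 M counts, 40 member genes were called, 34 of them higher. When each treatment was divided at its median plant number, 37 member genes were higher and 19 lower in drought among plants of the lower numbers. Among plants of the higher numbers 65 were higher and 43 lower, with 23 called in both and 16 of these in the same direction. Shares over all genes are not at hand for these refits, so their counts do not show behaviour particular to the members.

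**Figure D3:**
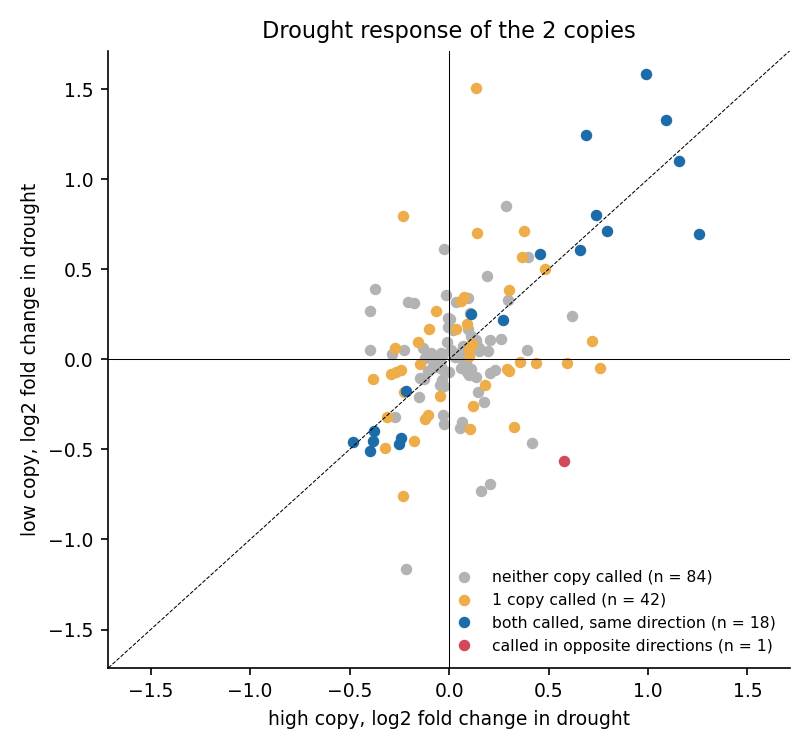
Log2 fold change in drought of the high copy (horizontal axis) and of the low copy (vertical axis) in the 145 orthogroups with both copies tested by DESeq2. Each point is an orthogroup, the dashed line marks equal change, and the 18 points with both copies called in the same direction lie in the upper right (11) and lower left (7).

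Ranked by the smaller change of their copies, OG0003419 and OG0003550 led the pairs whose copies both rose. Td00002ba023930 of OG0003419 (chromosome 7) ranged from 6.06 over 40.5 to 153 CPM per kb in drought and from 1.29 over 16.3 to 115.6 in well-watered plants. Td00002ba029308 (chromosome 9) ranged from 0.04 over 0.63 to 5.19 CPM per kb in drought and from 0 over 0.27 to 2.57 with ample water. The groups overlapped widely in both copies. The log2 fold changes were 1.16 (SE 0.19, adjusted p = 4.95e-08) and 1.10 (SE 0.27, adjusted p = 0.000472), although the copies differed 57.5-fold in level. Among plants of the higher numbers Td00002ba029308 missed the threshold (log2 fold change 0.32, adjusted p = 0.647).

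Td00002ba042714 of OG0003550 (chromosome 16) ranged from 2.72 over 23.8 to 172 CPM per kb in drought and from 1.48 over 11.6 to 135.8 in well-watered plants. Td00002ba034711 (chromosome 12) ranged from 0.09 over 1.30 to 64.03 CPM per kb in drought and from 0 over 0.46 to 14.7 with ample water. Medians were higher in drought in both copies and the ranges overlapped. The log2 fold changes were 1.09 (SE 0.25, adjusted p = 0.000152) and 1.33 (SE 0.33, adjusted p = 0.000743). Among plants of the lower numbers the direction turned, with -0.94 in Td00002ba042714 (adjusted p = 0.0240) and -1.02 in Td00002ba034711 (adjusted p = 0.0938). With limma voom Td00002ba042714 was at 0.66 (adjusted p = 0.103).

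By the same ranking OG0003228 and OG0003120 led the pairs whose copies both fell. Td00002ba029346 of OG0003228 (chromosome 9) ranged from 2.29 over 8.25 to 33.9 CPM per kb in drought and from 2.16 over 13.2 to 42.4 in well-watered plants. Td00002ba023891 (chromosome 7) ranged from 1.83 over 5.81 to 15.3 CPM per kb in drought and from 1.63 over 6.76 to 26.3 with ample water. The log2 fold changes were -0.48 (SE 0.15, adjusted p = 0.0107) and -0.46 (SE 0.13, adjusted p = 0.00365). Among plants of the lower numbers Td00002ba029346 was at 0.10 (adjusted p = 0.832), and with deep well-watered libraries only it was at -0.005 (adjusted p = 0.993). Its call was also lost with limma voom (-0.28, adjusted p = 0.218), without CWR plants (-0.32, adjusted p = 0.208) and without TRI plants (-0.44, adjusted p = 0.0594). Td00002ba023891 also lost its call, with deep libraries (-0.15, adjusted p = 0.595), with limma voom (-0.30, adjusted p = 0.0798) and among the higher plant numbers (-0.45, adjusted p = 0.0585).

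Td00002ba005154 of OG0003120 (chromosome 2) ranged from 2.05 over 4.22 to 8.73 CPM per kb in drought and from 2.32 over 5.63 to 12.2 in well-watered plants. Td00002ba020481 (chromosome 6) ranged from 0.10 over 0.59 to 1.35 CPM per kb in drought and from 0.25 over 0.92 to 2.23 with ample water. The log2 fold changes were -0.40 (SE 0.09, adjusted p = 7.14e-05) and -0.51 (SE 0.13, adjusted p = 0.00141). Neither copy passed the threshold among plants of the lower numbers, with -0.22 and -0.26.

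The single pair with opposite calls was OG0003300, of Td00002ba023338 (chr7:75583315-75584518, minus strand) and Td00002ba029889 (chr9:101324007-101325992, minus strand). Td00002ba023338 ranged from 20.1 over 71.9 to 230 CPM per kb in drought and from 19.04 over 51.3 to 130 in well-watered plants. Td00002ba029889 ranged from 2.83 over 10.8 to 23.6 CPM per kb in drought and from 5.29 over 16.8 to 32.6 with ample water. The first copy rose by 0.58 (SE 0.14, adjusted p = 0.000413) and the second fell by 0.57 (SE 0.12, adjusted p = 3.52e-05) on the log2 scale. Their log2 ratio rose by 0.98 (SE 0.19, 95% interval 0.61 to 1.36, adjusted p = 3.64e-05). With deep well-watered libraries only, the ratio shift was 0.51 (adjusted p = 0.235) and Td00002ba029889 was at 0.12 (adjusted p = 0.647). With limma voom Td00002ba029889 was at -0.30 (adjusted p = 0.0710). Among plants of the lower numbers the ratio shift was -0.07, and Td00002ba029889 was at 0.13, while among plants of the higher numbers the ratio shift was 2.03 (adjusted p = 2.98e-09).

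The ratio of high to low copy within each plant was compared on log2 CPM with a prior count of 1, so at low counts it still depends on depth. It was tested between treatments with limma over the orthogroups of this structure, at any level, whose copies both had a mean count of at least 10. All but 16 of the 150 members were tested, and those 16 had a low copy below that count. The ratio shifted in 30 of the members tested (22.4%), against 19.3% of all orthogroups tested. In 19 of the 30 the ratio of high to low copy fell in drought, and in 11 it rose (11.9% and 7.41% over all tested). The median size of the shift over the members tested was 0.15 on the log2 scale. Of the 30, 15 had 1 copy called for drought, 10 had neither, 4 had both in the same direction and 1 had opposite calls. Of the 30, 26 had a maize gene for each copy, out of 99 such pairs tested, and 4 of 35 shared both maize genes. Over all orthogroups tested, at any level, these counts were 38 of 174 and 9 of 69. Among those at lower levels alone they were 12 of 75 and 5 of 34, and a link with the maize assignment was not tested.

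The largest rise among the called ratios was that of OG0003498, ahead of OG0003300. Td00002ba037523 (chromosome 13) ranged from 2.69 over 8.53 to 73.3 CPM per kb in drought and from 0.57 over 8.66 to 43.02 in well-watered plants. Td00002ba013561 (chromosome 4) ranged from 0 over 0.09 to 3.28 CPM per kb in drought and from 0 over 0.25 to 7.55 with ample water, with 10 droughted and 4 well-watered plants at 0. The ratio rose by 1.25 (SE 0.33, adjusted p = 0.00292), while neither copy was called on its own. By site the shift was between 0.62 (TRI) and 1.72 (WEL). The call was lost with quasi-binomial regression (0.76, adjusted p = 0.210), with deep well-watered libraries only (1.14, adjusted p = 0.0642) and among the lower plant numbers (0.43, adjusted p = 0.614, against 2.09 among the higher).

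The largest fall was in OG0002422. Td00002ba002966 (chromosome 1) ranged from 9.07 over 18.1 to 55.1 CPM per kb in drought and from 6.04 over 15.5 to 40.5 in well-watered plants. Td00002ba015182 (chromosome 4) ranged from 0 over 0.16 to 5.28 CPM per kb in drought and from 0 over 0.07 to 7.44 with ample water. It was at 0 in 3 droughted and 21 well-watered plants, and well-watered libraries were shallower. The ratio fell by 1.497 (SE 0.41, adjusted p = 0.00451), with shifts between -2.28 (CWR) and -1.03 (WEL) by site. With deep well-watered libraries only, the shift was -1.45 (adjusted p = 0.0541), and without CWR plants it was -1.22 (adjusted p = 0.0719). Quasi-binomial regression gave -1.45 (adjusted p = 0.0941), and the lower plant numbers gave -1.27 (adjusted p = 0.0998). Droughted plants of lower against well-watered plants of higher numbers gave -0.36 (adjusted p = 0.702).

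In OG0003756 both copies rose, the low copy more. Td00002ba020380 (chromosome 6) ranged from 4.57 over 31.6 to 171 CPM per kb in drought and from 4.61 over 16.1 to 179 in well-watered plants. Td00002ba005292 (chromosome 2) ranged from 0.17 over 1.88 to 28 CPM per kb in drought and from 0 over 0.45 to 25.5 with ample water. The log2 fold changes of the means were 0.99 (SE 0.22, adjusted p = 0.000131) and 1.59 (SE 0.34, adjusted p = 8.03e-05). The mean log2 ratio fell by 1.47 (SE 0.28, adjusted p = 3.06e-05), more than the difference of these fold changes. The low copy was at 0 in 3 well-watered and 0 droughted live plants, and with a prior count of 5 the shift was -1.23 (adjusted p = 2.90e-05). The cause of the gap was not tested. Quasi-binomial regression, which weights plants by their counts, gave -0.46 (adjusted p = 0.102), and the lower plant numbers gave -1.21 (adjusted p = 0.0824).

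OG0003686 was chosen after its values were seen, as the only member whose ratio was called in the same direction in all 4 combinations of plant-number ranges. Td00002ba034373 (chr12:6641241-6645331) ranged from 7.05 over 16.4 to 60.9 CPM per kb in drought and from 2.38 over 7.07 to 15.7 in well-watered plants. Td00002ba042981 (chr16:90450685-90454996) ranged from 3.93 over 8.68 to 18.6 CPM per kb in drought and from 1.85 over 5.65 to 12.7 with ample water. Both copies rose, by 1.26 (SE 0.11, adjusted p = 4.17e-27) and by 0.69 (SE 0.10, adjusted p = 1.36e-10) on the log2 scale. Their ratio rose by 0.58 (SE 0.10, adjusted p = 1.69e-05), by 0.74 among the lower and 0.43 among the higher plant numbers.

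**Figure D4:**
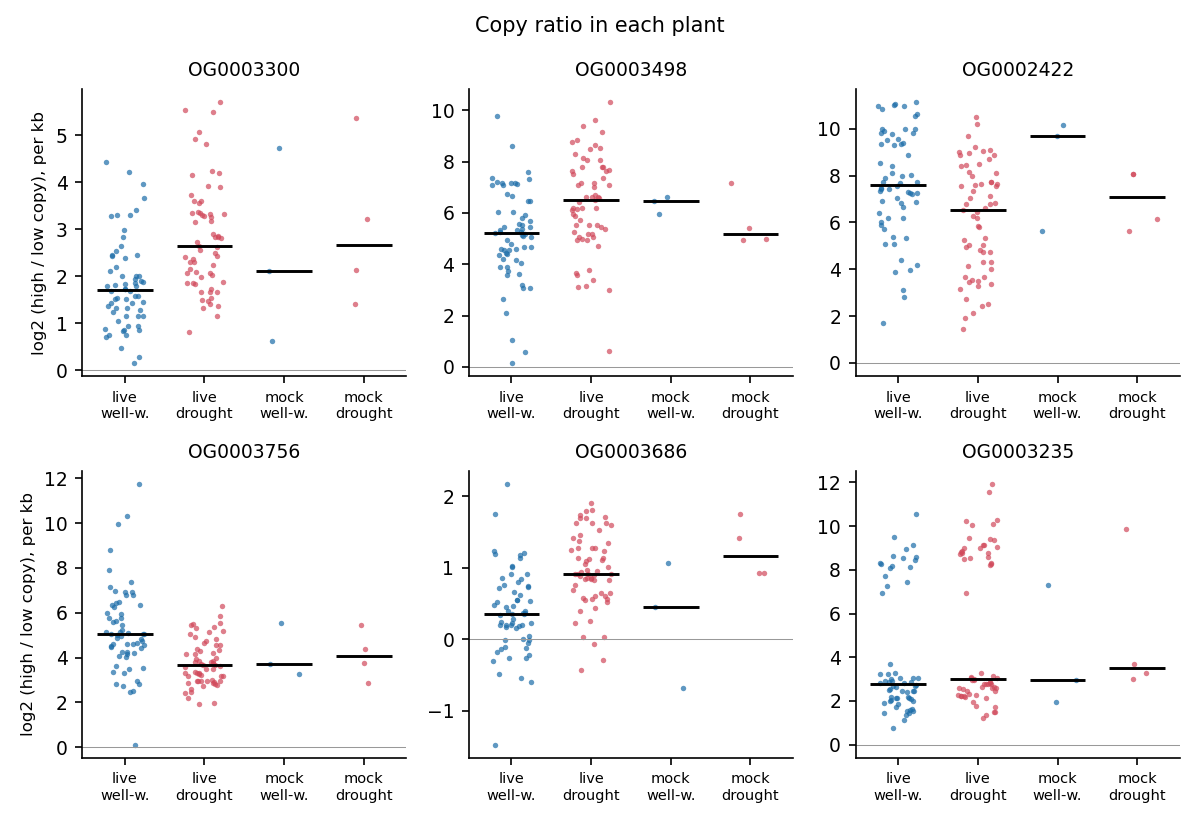
Log2 ratio of high to low copy (CPM per kb, prior count 1) in each plant for 6 pairs, with live and mock plants by water treatment on the horizontal axis. Each dot is a plant and each bar the median of its group, with 62 well-watered and 63 droughted live plants, 3 well-watered mock plants (the library of 6045 counts is not drawn) and 4 droughted mock plants. In OG0003235 the dots form separate clusters, and in the other 5 pairs droughted and well-watered live plants overlap.

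Site by site, 29 of the 30 called shifts had the same sign in CWR, WEL, SVR and TRI. The plants of these sites together had given the 30 calls, so the selection itself favoured equal signs. The exception was OG0003550, at 0.09 in WEL and between -1.52 and -0.38 in the other sites. Without CWR plants 12 member ratios were called and without SVR plants 18, against 30 with all plants.

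Plant numbers within a treatment gave different shifts. By the same division at the median plant number, the ratio was called in 7 members (5.22%) among the lower numbers, with 32 droughted and 31 well-watered plants, against 5.35% of all orthogroups tested. Among the higher numbers, with 31 and 31 plants, it was called in 53 (39.6%), against 36.6%. Of the 30 called over all plants, 2 were called among the lower and 26 among the higher numbers, and 25 and 30 kept their sign. Over all members tested the shifts in both ranges had the same sign in 67. The difference between the ranges was itself called in 32 members (23.9%), 11 of them among the 30, close to the 24.3% over all orthogroups tested. Within droughted plants alone, the ratio differed between lower and higher numbers in 37 members (27.6%, against 28% over all tested). Within well-watered plants it differed in 2 (1.49%, against 0.823%). What the plant numbers stand for is not given in the labels, and their part in the drought shifts cannot be told apart from treatment. In all 4 combinations of ranges, 24 of the 30 kept their sign, but the same plants had given the 30 calls.

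**Figure D5:**
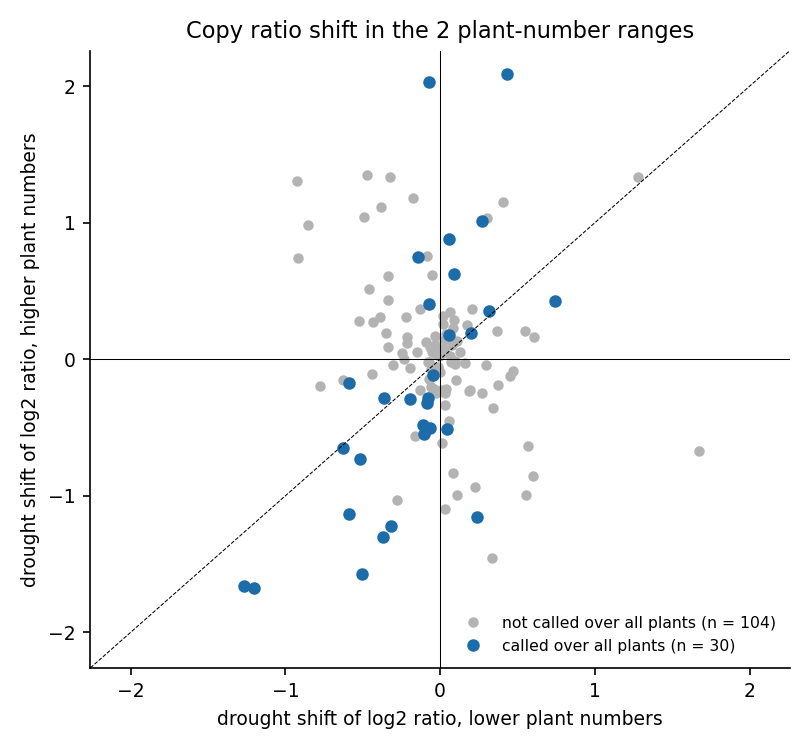
Drought shift of the log2 copy ratio among plants of the lower numbers (horizontal axis) and of the higher numbers (vertical axis) in the members tested. The 30 ratios called over all plants (blue) include 25 with the same sign on both axes, and the dashed line marks equal shifts.

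The mock plants gave a small second view. With all 8 mock libraries 18 of the 30 shifts had the same sign as in live plants, and 24 without the library of 6045 counts. Over all tested members the sign was the same in 83 without that library. For OG0003686 the high copy was at 25.4, 8.03, 24.4 and 14.9 CPM per kb in droughted mock plants and at 26.5, 4.53 and 3.76 in well-watered replicates 2 to 4. The low copy was at 7.56, 4.25, 12.9 and 5.60 CPM per kb and at 19.5, 2.16 and 6.05 in the same plants. The treatments overlapped in both copies. For OG0003498, the pair with the largest called rise, the log2 CPM ratio in droughted mock plants was 5.38, 4.95, 4.92 and 7.14. In well-watered replicates 2 to 4 it was 6.43, 5.96 and 6.62, so the rise of live plants did not recur there.

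The history of the inoculum left no called difference in copy levels or ratios. DESeq2 called 0 member genes for legacy, conditioning water or conditioning host, with 6, 9 and 19 genes at an unadjusted p under 0.05. Over all genes the shares called were 0.0645%, 0.0429% and 0.05%. The ratio test by limma called 0 members for each factor and for the dependence of the drought shift on legacy, with 3, 3, 4 and 2 members at an unadjusted p under 0.05. For legacy the smallest p belonged to OG0002344 (shift -0.25, 95% interval -0.47 to -0.04, adjusted p = 0.953). It belonged to OG0003027 for conditioning water (0.15, interval 0.02 to 0.28, adjusted p = 0.983) and to OG0002463 for conditioning host (-0.46, interval -0.75 to -0.16, adjusted p = 0.693). For the dependence on legacy it belonged to OG0003000 (-1.28, interval -2.31 to -0.25, adjusted p = 0.974). Quasi-binomial regression called 1 member, OG0003550 for legacy (1.04, adjusted p = 0.00343), which limma put at 0.07 (adjusted p = 0.953), and 0 for the other factors and for the dependence on legacy.

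Overlapping genes and shared reads were looked at as ways in which counting could blur copies. A copy overlapped another gene in 6 orthogroups, and without overlapping pairs 30 member ratios were called. Values that were not whole, a sign of reads shared between genes or places, made up a median of 2.4% of a member gene's live libraries and at most 52%. Mates were counted singly, so the fractions of a mate pair can add up to a whole number. Shared reads can thus be missed by this measure. In 20 orthogroups a copy had over 20% of such values, and 1 of these was among the 30 called ratios.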

How the data were processed

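The deposited values are expected counts per gene from poly(A) crown-root libraries. The authors used cutadapt for trimming, HISAT2 for alignment to haplotype A of Td-KS_B6_1-REFERENCE-PanAnd-2.0a, SAMtools for removing duplicates and featureCounts 2.0.5 for counting with annotation Td00002ba.2. Reads shared by genes or by mapping places entered as fractions, mates were counted singly and strand was not used. The deposited orthologue table came from OrthoFinder.

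The members and lists were chosen with earlier results of these data known. Gene spans include introns, so CPM per kb is lower for a gene with long introns. Counts were rounded for DESeq2 1.42.0, which fitted test-phase water, precipitation legacy, conditioning water and conditioning host over the live libraries of the whole table, with its default independent filtering. The log2 ratio of the copies in each plant (log2 CPM, prior count 1) was fitted with limma 3.58.1 and the same covariates, over the orthogroups of this structure in which both copies had a mean count of at least 10. All tests were two-sided, with Benjamini-Hochberg adjustment and calls at 0.05. Alternatives used edgeR 4.0.16, limma voom, quasi-binomial regression, other filters, priors and subsets of plants. Scripts were tested on simulated data. Orthogroups were named by rank: in level, in balance, in the response of both copies, in the ratio shift and in the smallest p of each inoculum factor. Any other is marked as chosen after its values were seen.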

Additional observations from a re-analysis of the deposited data

Results flagged for a closer look

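In OG0003300 the drought shift of the copy ratio differed between plant-number ranges by 2.11 on the log2 scale (higher minus lower numbers, adjusted p = 4.92e-07 by limma), and in OG0003498 by 1.72 (adjusted p = 0.0375). Such a difference was called in 32 members. In OG0003498 the copy ratios of mock well-watered plants held 1 library far from the others, the one with 6045 counts, with a gap of 0.900 of the range, above Dixon's 95% critical value for 4 samples. Both copies of OG0003498 were at 0 CPM per kb in that library, so its log2 ratio of 0 came from the prior count. Chance alone marks about 1 in 20 groups, and 10 mock groups were checked.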

How the results depend on the processing

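Against 30 member ratios called over all plants, refits called 9 with deep well-watered libraries only, 7 among lower and 53 among higher plant numbers, 12 without CWR and 18 without SVR plants. Of the 30, these refits kept 9, 2, 26, 12 and 17. Droughted plants of lower numbers against well-watered plants of higher numbers, an alternative chosen after seeing the data, gave 14. With deep well-watered libraries only, 40 member genes were called for drought, without a share over all genes at hand. Quasi-binomial regression called 1 ratio for inoculum history. Without gene span the median log2 level ratio was 1.39. Leaving out each mock library in turn gave 14 to 24 of 30 shifts with the sign of live plants. The cause of these changes was not tested. Directions reversed for Td00002ba029889 with deep libraries (0.12) and among lower numbers (0.13). Among lower numbers they also reversed for Td00002ba042714 (-0.94), Td00002ba034711 (-1.02), Td00002ba029346 (0.10) and the ratio of OG0003300 (-0.069). The plant-number spline called 33 ratios. It was centred within treatments, so it could hardly move the ratio shifts, and the 4 named ones moved little. It therefore does not show that the shifts are free of plant number. It called 93 member genes for drought and put Td00002ba029308 at 0.67. No paired analysis was possible because the labels do not tie plants of different treatments to each other, and replicate numbers follow accession order. Depth limits the low copies, 16 of which fell below a mean count of 10.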

Other observations

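The 199 orthogroups of the same structure at lower levels are given for comparison. In 90 of them the low copy had a mean count under 10, against 16 of the 150 members. Their median log2 level ratio was 1.59, and 11 low copies were at 0 in every live library. Where both copies reached the minimum count, the copy ratio was called in 17 (15.6%). Of the 164 with both copies tested for drought, 10 had both copies called in the same direction and 3 in opposite directions. The median SD of the log2 ratio over plants was 1.47, against 0.74 among the members. The high copy led in every live plant in 13, against 63 of the members. The part of low counts in these differences was not tested.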
